A study of Mus musculus with 6 samples.

Results

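The enzymes of serine, glycine and one-carbon, proline and asparagine synthesis were described in 4T-1 cells with a hyperactive EZH2. They were the rows of the count table whose gene name was *Phgdh*, *Psat1*, *Psph*, *Shmt1*, *Shmt2*, *Mthfd2*, *Mthfd1l*, *Pycr1*, *Aldh18a1* or *Asns*, which gave 10 genes of 40205 in all. 4T-1 is a mouse mammary carcinoma line used as a model of triple-negative breast cancer. RNA was sequenced from 3 libraries of cells transduced with the MSCV retroviral vector (Control, labelled WT) and 3 libraries of cells transduced with EZH2 carrying the Y641-F change (Y641-F, labelled Y641 mutated). EZH2 is the histone H3K27 methyltransferase of the Polycomb complex PRC2. The libraries of a group are described as batches of stable cells, and no source says whether each had its own transduction, so p-values here cover the spread between batches. The study's methods name puromycin for Control cells, and puromycin in one passage and hygromycin in another for Y641-F cells, so the selection drug and the EZH2 change cannot be told apart if the drugs differed. The methods limit the experiments to early passages, and the passage of each library is not given in the sources used here.

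Serine is made from the glycolytic intermediate 3-phosphoglycerate, which PHGDH oxidizes, PSAT1 transaminates and PSPH dephosphorylates. The serine hydroxymethyltransferases, SHMT1 in the cytosol and SHMT2 in mitochondria, split serine into glycine and a one-carbon unit on tetrahydrofolate, which in mitochondria MTHFD2 oxidizes and MTHFD1L releases as formate for purine and thymidylate synthesis in the cytosol. ALDH18A1 reduces glutamate to pyrroline-5-carboxylate, which the PYCR enzymes reduce to proline, and ASNS makes asparagine from aspartate with the amide of glutamine. Many of these genes are known targets of ATF4, the transcription factor of the amino acid response, and rapidly dividing tumour cells commonly express them at high levels.

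The libraries held 32509268 to 36429035 counts each. Replicates of a group differed beyond counting noise (chi-square divided by its degrees of freedom, 10.9 to 29.7). The highest values were those of the pairs with Y641-F replicate 2, at 28.3 and 29.7, and this library had the lowest normalised level of its group for 8 of the 10 enzymes. How often it was lowest over all genes was not counted, so whether this is particular to the enzymes is not known. Mouse *Ezh2* had 3574, 4350 and 3644 counts in Control replicates 1 to 3 and 3686, 3354 and 4196 in Y641-F replicates 1 to 3, so the gene that was transduced did not mark the Y641-F libraries. The sequence of the construct is not given in the sources used here, and it is not known whether reads from it were assigned to the mouse gene. All 8 epithelial markers listed were detected, with a summed level of 3541 to 3616 CPM (counts scaled to library size, with TMM factors) in Control and 3703 to 4208 CPM in Y641-F libraries. Of 10 markers of leukocytes, endothelium, fibroblasts and fat cells, 8 passed the filter on low counts and summed to 2.28 to 6.11 CPM in Control and 1.99 to 2.9 CPM in Y641-F libraries. The highest sum was that of Control replicate 2, which had 85 counts of *Ptprc* and 75 of *Adgre1*, both leukocyte markers. Control replicates 1 and 3 had 24 and 22 counts of *Ptprc* and 10 and 22 of *Adgre1*. *Adipoq* was at 0 in 4 of the 6 libraries.

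The 10 enzymes did not move together. All 10 passed the filter on low counts (at least 0.1 CPM in at least 3 libraries), and 4 were higher, 2 lower and 4 not past the threshold in Y641-F cells by edgeR's quasi-likelihood test, at an adjusted p under 0.05 with Benjamini-Hochberg adjustment over 21043 genes. Of all genes tested, 31.6% were called, 15.6% as higher and 16% as lower, so calls were frequent in this comparison. The genes that rose were *Shmt1*, *Mthfd2*, *Shmt2* and *Phgdh*, and those that fell were *Pycr1* and *Mthfd1l*. *Psat1*, *Psph*, *Aldh18a1* and *Asns* did not pass. Without Y641-F replicate 2, 7 enzymes were called, 5 as higher and 2 as lower, where 35.9% of all genes were called. Without any 1 of the other 5 libraries, 5 enzymes were called, 3 as higher and 2 as lower, where 23.4% to 27.4% of all genes were called. In bulk samples such as these, fewer cells that express a gene and less RNA per cell cannot be told apart. The median log2FC (log2 of the Y641-F level over the Control level) was 0.12 over the 10 enzymes and -0.01 over all genes tested. The libraries of the groups did not overlap for 5 enzymes that were higher and 2 that were lower in Y641-F cells, against 44.5% of all genes (21.2% higher and 23.3% lower). The study's own thresholds ask for a 2-fold or larger difference (1 log2 unit) with p of 0.05 or less before adjustment. *Pycr1* was the 1 enzyme past them, against 9.16% of all genes (3.4% higher and 5.76% lower).

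**Figure D1:**
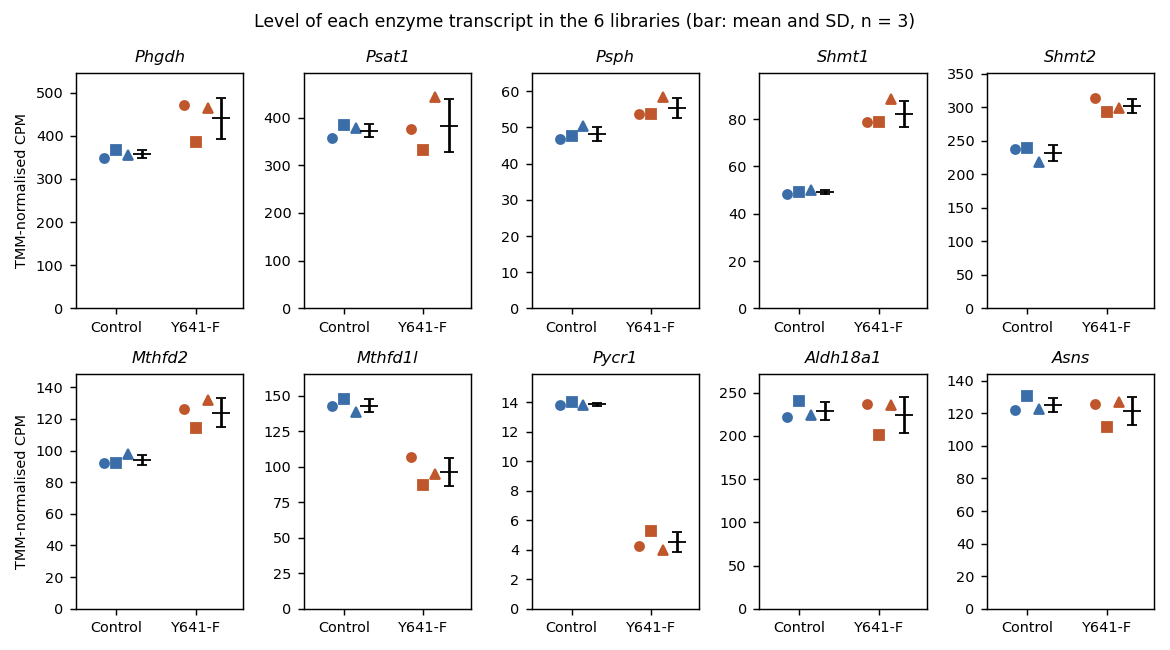
TMM-normalised CPM (linear axis from 0) of each of the 10 enzymes in the 3 Control and 3 Y641-F libraries. Circles, squares and triangles are replicates 1, 2 and 3, and the bar is the mean with its SD (n = 3). *Pycr1* fell from 13.9 to 4.51 CPM without overlap, while the libraries of *Psat1*, *Aldh18a1* and *Asns* overlapped.

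Levels were compared between the enzymes per kilobase of the canonical GENCODE transcript. In Control cells *Phgdh* had the highest mean level, at 189 CPM per kilobase, followed by *Psat1* at 142 and *Shmt2* at 101. *Aldh18a1* (64.9), *Mthfd2* (44.8), *Mthfd1l* (38.5), *Asns* (25.5), *Psph* (19.8) and *Shmt1* (17.2 CPM per kilobase) came next, and *Pycr1* was lowest at 7.36. No neighbours in this order overlapped between Control libraries. In Y641-F cells *Phgdh* stayed first at 233 and *Pycr1* last at 2.39 CPM per kilobase. There *Psat1* and *Shmt2* overlapped, as did *Aldh18a1* and *Mthfd2*, and each neighbouring pair in the series *Shmt1*, *Mthfd1l*, *Asns* and *Psph*, between 28.6 and 22.7 CPM per kilobase. In that group *Shmt1* ranked above *Mthfd1l*, the reverse of their order in Control cells. These levels depend on the transcript length used, since the annotation behind the counts is not given in the sources used here.

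Of the 3 enzymes that make serine, *Phgdh* was modestly higher in Y641-F cells, and *Psat1* and *Psph* did not pass the test. *Phgdh* (chromosome 3, 98220484 to 98255047, minus strand of GRCm39), the first enzyme of the pathway, was at 349, 367 and 355 CPM in Control replicates 1 to 3 and 472, 386 and 464 CPM in Y641-F replicates 1 to 3. All Y641-F libraries lay above all Control libraries, with replicate 2 closest to them. The log2FC was 0.30 ± 0.102 (SE; edgeR adjusted p = 0.0391), a 1.23-fold difference with a 95% interval of 1.06 to 1.44. This call was lost without Control replicate 1, 2 or 3 (adjusted p = 0.103, 0.109 and 0.0919) and without Y641-F replicate 1 or 3 (adjusted p = 0.123 and 0.114), all from edgeR. With the replicate number as a block the edgeR adjusted p was 0.0577, and it was 0.00233 without Y641-F replicate 2.

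*Psat1* (chromosome 19, 15882039 to 15924701, minus strand), the aminotransferase of the second step, had 356, 384 and 378 CPM in the Control libraries. Its Y641-F libraries had 376, 331 and 442 CPM and spread on both sides of the Control values. The log2FC was 0.04 ± 0.112 (SE; edgeR adjusted p = 0.828), with a 95% interval of 0.868 to 1.22 for the fold. *Psph* (chromosome 5, 129841925 to 129864513, minus strand), the phosphatase of the last step, had 46.7, 47.5 and 50.3 CPM in Control and 53.7, 53.6 and 58.4 CPM in Y641-F libraries. Its groups did not overlap, and its log2FC of 0.20 ± 0.0831 (SE; edgeR adjusted p = 0.0926) missed the threshold, with a 95% interval of the fold of 1.012 to 1.301. Without Y641-F replicate 2 it passed (adjusted p = 0.0491 from edgeR), and over all alternatives its adjusted p was 0.049 to 0.254. Exons of *Psph* overlap those of *Cct6a*, a chaperonin subunit on the other strand, by up to 465 bases. *Cct6a* had 18948 to 21477 counts in Control and 23920 to 36108 counts in Y641-F libraries against 1662 to 2000 counts of *Psph* in any library, and its part in the *Psph* value was not tested.

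Both serine hydroxymethyltransferases rose. *Shmt1* (chromosome 11, 60661185 to 60708167, minus strand), the cytosolic enzyme, had 48.5, 49.01 and 49.9 CPM in Control replicates 1 to 3 and 78.6, 78.9 and 88.3 CPM in Y641-F replicates 1 to 3. The groups lay far apart relative to their spread, with a log2FC of 0.74 ± 0.0839 (SE; edgeR adjusted p = 4.92e-05) and a 1.67-fold difference (95% interval 1.47 to 1.89). *Shmt2* (chromosome 10, 127352266 to 127358323, minus strand), the mitochondrial enzyme, was the more abundant of the pair, at 239, 239 and 219 CPM in Control and 314, 293 and 299 CPM in Y641-F libraries. Its log2FC was 0.38 ± 0.0882 (SE; edgeR adjusted p = 0.00609). *Shmt1* supplied 16.9% to 18.6% of the counts of the pair in Control libraries and 20.0% to 22.8% in Y641-F libraries, and the summed level of the pair was 269 to 288 CPM in Control and 372 to 393 CPM in Y641-F libraries.

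The mitochondrial enzymes after SHMT2 went in opposite directions. *Mthfd2* (chromosome 6, 83282673 to 83302890, minus strand), the dehydrogenase and cyclohydrolase, had 92.2, 92.4 and 97.6 CPM in Control replicates 1 to 3 and 126, 114 and 132 CPM in Y641-F replicates 1 to 3. It rose by a log2FC of 0.40 ± 0.0871 (SE; edgeR adjusted p = 0.0042), without overlap of the groups. *Mthfd1l* (chromosome 10, 3922870 to 4117081, plus strand), the synthetase that frees formate, had 143, 148 and 139 CPM in Control replicates 1 to 3 and 107, 87.1 and 94.97 CPM in Y641-F replicates 1 to 3. Every Y641-F library lay below every Control library, with a log2FC of -0.57 ± 0.0938 (SE; edgeR adjusted p = 0.000652), or 0.673 of the Control level (95% interval 0.584 to 0.775).

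*Pycr1* (chromosome 11, 120526484 to 120539269, minus strand), which encodes a mitochondrial reductase of the last step of proline synthesis, was the enzyme with the largest change of the 10. Its raw counts were 495, 504 and 457 in Control replicates 1 to 3 and 133, 173 and 136 in Y641-F replicates 1 to 3, or 13.8, 14.0 and 13.8 CPM against 4.28, 5.28 and 3.97 CPM. The Control libraries were nearly equal and the Y641-F libraries all lay at less than their level, with a log2FC of -1.62 ± 0.139 (SE; edgeR adjusted p = 6.74e-06). The Y641-F level was 0.325 of the Control level (95% interval 0.263 to 0.402), and *Pycr1* stood at the 2.98 percentile of all log2FCs tested. *Aldh18a1* (chromosome 19, 40538698 to 40576949, minus strand), which makes the precursor that PYCR1 reduces, had 222, 241 and 224 CPM in Control and 237, 201 and 236 CPM in Y641-F libraries. Those ranges overlapped, with a log2FC of -0.03 ± 0.0958 (SE; edgeR adjusted p = 0.859) and a 95% interval of the fold of 0.848 to 1.13.

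*Asns* (chromosome 6, 7671667 to 7728461, minus strand), asparagine synthetase and a classical target of ATF4, had 122.3, 130.3 and 122.8 CPM in Control replicates 1 to 3 and 125.5, 111.6 and 126.9 CPM in Y641-F replicates 1 to 3. The groups overlapped, and the log2FC was -0.04 ± 0.0872 (SE; edgeR adjusted p = 0.748). The 95% interval of the fold, 0.85 to 1.11, holds no difference as large as those of *Shmt1*, *Mthfd1l* or *Pycr1*. Exons of 7 of the 10 enzymes, all but *Phgdh*, *Psat1* and *Mthfd2*, share bases with exons of an opposite-strand gene in GENCODE, and the strand setting of the counting is not given. *Phgdh* has a processed pseudogene, *Phgdh-ps1*, so some of its reads may map to both places. Whether the other enzymes have pseudogenes is not described here.

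**Figure D2:**
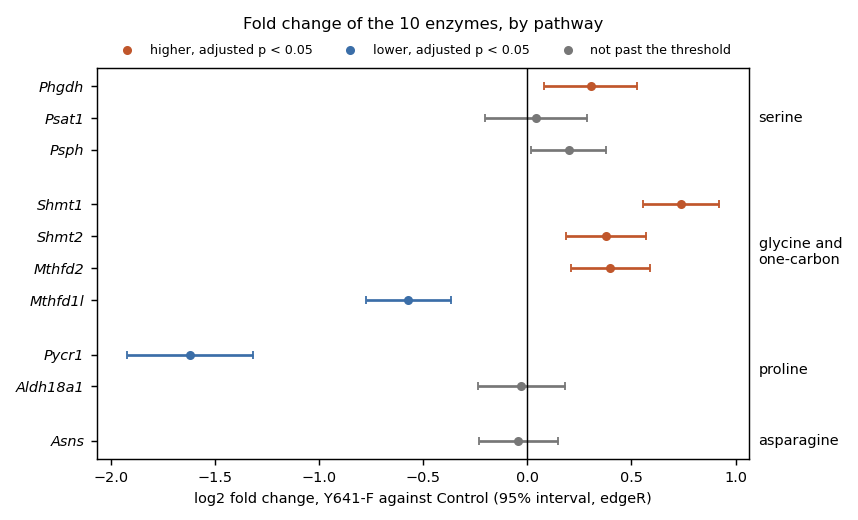
Log2FC of the 10 enzymes in Y641-F against Control cells, with 95% intervals from edgeR, ordered by pathway. Values right of 0 are higher in Y641-F cells, and the interval of *Pycr1* (-1.92 to -1.32) does not overlap that of any other enzyme.

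The promoters of *Pycr1* and *Asns* are shown because they were the 2 of the 10 genes whose RefSeq promoter held the core of an amino acid response element, TGATGNAA (N for any base, either strand), while *Pycr1* fell and *Asns* did not pass the test. Each runs from 250 bases before to 50 bases after the RefSeq start (RefSeq, GRCm38.p6), and each was found at 1 place on its chromosome in GRCm39, at chr11:120534525-120534824 for *Pycr1* and chr6:7693160-7693459 for *Asns*, both on the minus strand. Capitals mark the match, which begins 103 bases before the start in *Pycr1* and 23 bases before it in *Asns*.
Pycr1: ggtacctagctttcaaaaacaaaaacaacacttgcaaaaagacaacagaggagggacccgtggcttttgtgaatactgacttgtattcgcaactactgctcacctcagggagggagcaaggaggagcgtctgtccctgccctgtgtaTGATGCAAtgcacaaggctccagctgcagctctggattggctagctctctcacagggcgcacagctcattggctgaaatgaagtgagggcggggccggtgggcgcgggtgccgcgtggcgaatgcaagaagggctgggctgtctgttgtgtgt
Asns: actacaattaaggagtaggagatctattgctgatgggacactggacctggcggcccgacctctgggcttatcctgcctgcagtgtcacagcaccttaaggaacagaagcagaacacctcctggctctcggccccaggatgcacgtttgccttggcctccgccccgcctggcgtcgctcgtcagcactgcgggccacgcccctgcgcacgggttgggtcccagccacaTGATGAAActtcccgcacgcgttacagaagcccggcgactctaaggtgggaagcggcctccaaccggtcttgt
The core occurred in 3.97% of the 32851 RefSeq promoters of this length. The E-box CACGTG, bound by MYC among other factors, occurred in the *Aldh18a1* promoter alone of the 10 genes, and in 7.15% of all promoters. The GC box GGGCGG, the motif of SP1 (either strand), occurred in promoters of 7 of the 10 genes, *Pycr1* and *Asns* among them, and in 35.7% of all promoters. For each motif a gene was counted if any of its promoters matched (*Psat1* had 2 promoters), while the background counts single promoters. A match describes letters in this window and not binding. These motifs do not overlap each other in the *Pycr1* and *Asns* windows.

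Ratios within a library need no scaling between libraries, so each enzyme was also set against a paralog where 1 was listed. *Pycr3* (*Pycrl* in the count table), a reductase that shares the reaction of *Pycr1*, rose by a log2FC of 0.79 ± 0.0949 (SE; edgeR adjusted p = 7.30e-05). It had 858, 739 and 765 counts in Control replicates 1 to 3 and 1271, 1215 and 1329 in Y641-F replicates 1 to 3, so every Y641-F library lay above every Control library, opposite to *Pycr1*. The log2 ratio of *Pycr1* to *Pycr3* was -0.70 ± 0.127 (SD, n = 3) in Control and -3.11 ± 0.266 (SD, n = 3) in Y641-F cells.

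*Mthfd1*, which in the cytosol carries the activities that MTHFD2 and MTHFD1L hold in mitochondria, rose by a log2FC of 0.54 ± 0.102 (SE; edgeR adjusted p = 0.00157). The log2 ratio of *Mthfd1l* to *Mthfd1* was 0.36, 0.27 and 0.34 in Control replicates 1 to 3 and -0.81, -0.76 and -0.80 in Y641-F replicates 1 to 3, so the more counted gene of the pair changed between the groups. The log2 ratio of *Shmt2* to *Shmt1* was 2.24 ± 0.0928 (SD, n = 3) in Control and 1.88 ± 0.121 (SD, n = 3) in Y641-F cells. That of *Mthfd2* to its paralog *Mthfd2l* was 1.83 ± 0.0741 (SD, n = 3) in Control and 2.19 ± 0.162 (SD, n = 3) in Y641-F cells, with *Mthfd2l* itself at a log2FC of 0.04 ± 0.0957 (SE; edgeR adjusted p = 0.814). In each of the 4 pairs the libraries of the groups did not overlap, and the two-sided exact permutation test gave p = 0.1, the smallest that 3 against 3 libraries allow (0.1 after Benjamini-Hochberg adjustment over the 4 pairs). This design cannot pass a threshold of 0.05 by that test.

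**Figure D3:**
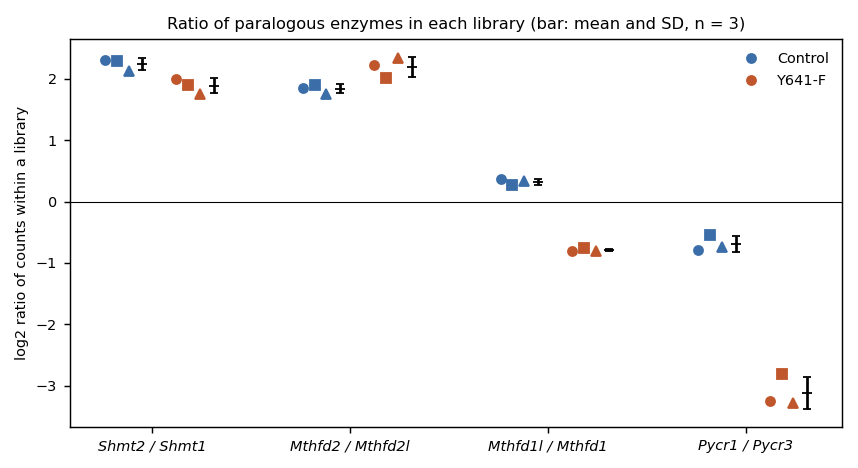
Log2 ratio of the counts of paralogous enzymes within each library, for 4 pairs in Control and Y641-F cells. Circles, squares and triangles are replicates 1, 2 and 3, and bars are the mean and SD (n = 3). The ratio of *Mthfd1l* to *Mthfd1* lies above 0 in Control and below 0 in Y641-F cells, and the ratio of *Pycr1* to *Pycr3* drops from -0.70 to -3.11.

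Among other genes of folate and glycine metabolism, *Slc19a1*, *Slc25a32*, *Gcsh*, *Fpgs*, *Tyms*, *Mthfd1* and *Sfxn1* rose in Y641-F cells. Of the glycine cleavage system, *Gcsh* alone was among them. Of 18 genes listed, 17 were tested, of which 7 rose, 1 fell and 9 did not pass, with a median log2FC of 0.24. Calls made up 47.1% of the genes tested, against 31.6% of all genes. With a filter of 1 CPM in at least 3 libraries these shares were 56.2% and 46.2%. *Slc19a1*, the reduced folate carrier of the plasma membrane, had the largest rise of the list, from 27.9 ± 4.04 to 78.7 ± 12.0 CPM (SD, n = 3), a log2FC of 1.49 ± 0.129 (SE; edgeR adjusted p = 6.88e-06). *Slc25a32*, which carries folate into mitochondria, and *Gcsh*, the lipoyl-bearing protein of the glycine cleavage system, rose by log2FCs of 1.002 ± 0.0891 (SE) and 0.97 ± 0.107 (SE). The other listed genes of that system, *Dld*, *Amt* and *Gldc*, were not called (log2FC 0.17, -0.99 and -0.56). Their edgeR adjusted p was 0.207, 0.144 and 0.576, and *Gldc* had only 3 to 9 counts in a library. *Aldh1l2*, a mitochondrial enzyme that oxidizes 10-formyltetrahydrofolate, fell by a log2FC of -1.16 ± 0.38 (SE; edgeR adjusted p = 0.0362) at a low level of 74, 37 and 56 counts in Control and 26, 14 and 30 in Y641-F libraries. That call was lost without Control replicate 1 or 3 (edgeR adjusted p = 0.147 and 0.0962) and without Y641-F replicate 1, 2 or 3 (edgeR adjusted p = 0.0625, 0.0752 and 0.053).

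Of 10 genes whose products use or break down serine, 9 were tested, of which 5 rose, 1 fell and 3 did not pass, with a median log2FC of 0.63. Called were 66.7% of the genes tested in this list and 31.6% of all genes (71.4% and 46.2% with the 1 CPM filter). *Cbs*, cystathionine beta-synthase, which joins serine to homocysteine, had 534, 468 and 405 counts in Control replicates 1 to 3 and 12, 8 and 15 in Y641-F replicates 1 to 3, a log2FC of -5.21 ± 0.214 (SE; edgeR adjusted p = 3.80e-08). *Cth*, the next enzyme of the route to cysteine, had 238 to 256 and 234 to 282 counts and did not pass (log2FC 0.12 ± 0.136, SE; edgeR adjusted p = 0.538). *Srr*, serine racemase, and *Sptlc1*, a subunit of the serine palmitoyltransferase of sphingolipid synthesis, rose by log2FCs of 0.75 and 0.67. *Sds*, serine dehydratase, had at most 10 counts in a Control and 16 to 26 in the Y641-F libraries (log2FC 1.79, adjusted p = 0.0443 from edgeR), and its call was lost without Control replicate 1 or 3 (edgeR adjusted p = 0.0681 and 0.105) or any Y641-F replicate (edgeR adjusted p = 0.0636, 0.0779 and 0.0939).

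Of 9 other genes of proline, ornithine and glutamate exchange, 8 were tested, of which 3 rose, none fell and 5 did not pass by edgeR, with a median log2FC of 0.07. At an unadjusted p under 0.05, 1 of them was lower, and DESeq2 and limma-voom also called none as lower, whereas edgeR called 1 as lower with upper-quartile factors or a 1 CPM filter. Called were 37.5% of the genes tested in this list and 31.6% of all genes (57.1% and 46.2% with the 1 CPM filter). *Prodh*, proline dehydrogenase, which breaks proline down, rose from 15.6 ± 2.85 to 30.0 ± 6.81 CPM (SD, n = 3), a log2FC of 0.95 ± 0.167 (SE; edgeR adjusted p = 0.00103). *Odc1*, ornithine decarboxylase of polyamine synthesis, rose by a log2FC of 0.76 ± 0.112 (SE). Of 11 genes of aspartate, glutamine and connected amino acid metabolism, 10 were tested. Of these 1 rose, 4 fell and 5 did not pass, with a median log2FC of -0.16. The share called in this list was 50%, against 31.6% of all genes (50% and 46.2% with the 1 CPM filter). *Gpt2*, the mitochondrial alanine aminotransferase, and *Gls2*, a glutaminase, fell by log2FCs of -1.21 ± 0.104 (SE) and -0.75 ± 0.093 (SE). *Asl*, argininosuccinate lyase, fell by -0.36 on the log2 scale ± 0.0817 (SE), and *Asrgl1*, an asparaginase, by -0.39 ± 0.118 (SE; edgeR adjusted p = 0.0251). The *Asrgl1* call was lost without Control replicate 2 or 3 or Y641-F replicate 3 (edgeR adjusted p = 0.076, 0.0999 and 0.0754), and without each of these 3 libraries the calls of the aspartate and glutamine list numbered 3 instead of 5.

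**Figure D4:**
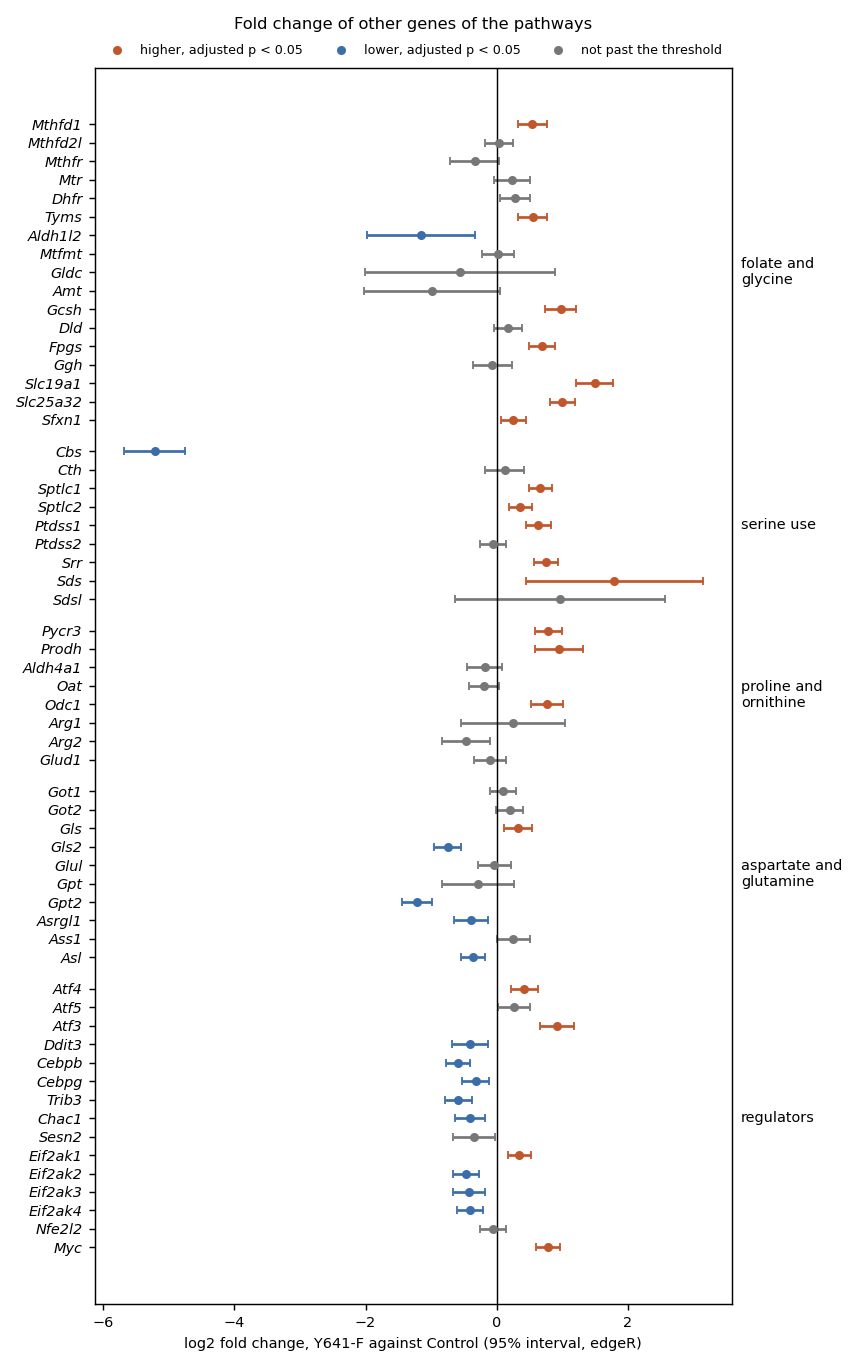
Log2FC, with 95% intervals from edgeR, of other genes of these pathways and of regulators in Y641-F against Control cells. The regulators are of the amino acid response and of related stress and growth control. Most called folate genes lie right of 0 (7 of 8), most called regulators lie left of 0 (8 of 12), and *Cbs* has the largest change, at -5.21.

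*Atf4* mRNA rose, while most genes called in a list of regulators of the amino acid response and of related stress and growth control fell. *Atf4* had 6158, 6576 and 6269 counts in Control replicates 1 to 3 and 7764, 7249 and 8801 in Y641-F replicates 1 to 3, a log2FC of 0.42 ± 0.0932 (SE; edgeR adjusted p = 0.00453). ATF4 is regulated mainly in translation, and its protein was not measured in these data. Of the 15 genes of that list, all tested, 4 rose, 8 fell and 3 did not pass, with a median log2FC of -0.34. The share called was 80%, and it was 31.6% over all genes. With the 1 CPM filter, which removes low genes that are seldom called, these shares were 80% and 46.2%. *Cebpb*, a partner of ATF4, and *Trib3*, an ATF4 target that restrains it, fell by log2FCs of -0.60 ± 0.0834 (SE) and -0.58 ± 0.0961 (SE). *Atf3*, a stress-induced factor, and *Myc*, which activates serine and nucleotide synthesis genes in tumour cells, rose by 0.92 ± 0.118 (SE) and 0.78 ± 0.0846 (SE), with edgeR adjusted p = 0.000117 and 3.55e-05.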

How the data were processed

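Per the methods and the submitters' processing notes, TRIzol RNA was made into NEBNext Ultra II libraries and sequenced on an Illumina NovaSeq, and the authors trimmed reads with fastp, mapped them with STAR version 2 to GRCm39 and counted them with featureCounts. For fastp and featureCounts the processing notes give versions 0.20.1 and 2.0.1, which differ from those in the study's reporting summary. The deposited values are whole read counts per gene with no normalization. No source used here names the annotation or the strand setting. Titles gave the groups.

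edgeR 4.0.16 in R 4.3.3 kept the 21043 genes that reached 0.1 CPM in 3 or more libraries, scaled libraries by TMM and applied the quasi-likelihood test with Benjamini-Hochberg adjusted p. Ratios of counts used a pseudocount of 0.5. Alternatives were upper-quartile factors, DESeq2 size factors, no filter or a 1 CPM filter, the DESeq2 1.42.0 Wald test, limma-voom (limma 3.58.1), the replicate number as a block, a pseudocount of 5 for ratios, and leaving out each library. The code was tested on simulated counts. Positions and lengths are from GENCODE vM39, and RefSeq promoters were matched by Entrez ID. Figures used Python 3.11.15.

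The members and lists were chosen with earlier results of these data known. Named genes were all 10 enzymes, listed paralogs, up to 4 called genes of each other list with the largest changes, *Cbs*, *Cth*, *Prodh*, *Atf4*, *Myc* and *Ezh2*. *Cct6a*, *Adipoq*, *Ptprc*, *Adgre1*, *Dld*, *Amt*, *Gldc*, *Fpgs*, *Tyms* and *Sfxn1* were named after their values were seen. One gene of the planned lists is not reported here.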

Additional observations from a re-analysis of the deposited data

How the results depend on the processing

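The count of enzymes called stayed between 5 and 7 of 10 under every alternative run. It was 6 with DESeq2 size factors, upper-quartile factors, no filter on low counts, the DESeq2 Wald test and limma-voom, where 22.6% to 32.2% of all genes were called. With a filter of 1 CPM it was 7, as *Psph* passed (adjusted p = 0.049 from edgeR), and 46.2% of all genes were called. With each library left out it was 5 to 7, where 23.4% to 35.9% of all genes were called. *Shmt1*, *Shmt2*, *Mthfd2*, *Mthfd1l* and *Pycr1* kept their call and direction under all 13 alternatives, and *Pycr1* was between -1.75 and -1.53 on the log2 scale. The 1 CPM filter left 1110 genes past the study's thresholds instead of 1927, because fewer low genes were tested. Calls of the aspartate and glutamine list ranged from 3 to 7 as libraries were left out. Signs turned for genes that were not called. As libraries were left out, the log2FC ranged from -0.075 to 0.14 for *Psat1* (below 0 without Control replicate 1 or Y641-F replicate 3), from -0.068 to 0.046 for *Aldh18a1* (above 0 without Control replicate 2 or Y641-F replicate 2), from -0.077 to 0.013 for *Asns* (above 0 without Y641-F replicate 2), from -0.0076 to 0.10 for *Mthfd2l* (below 0 without Control replicate 2) and from -0.022 to 0.13 for *Ezh2* (below 0 without Control replicate 1). With upper-quartile factors the edgeR adjusted p of *Sds* was 0.0511, and the 1 CPM filter removed it. No paralog ratio changed direction.

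Same-numbered libraries deviated together for replicate 3 only (r across genes of -0.13, -0.19 and 0.31 for replicates 1, 2 and 3). Control replicate 1 and Y641-F replicate 2, of unlike number, had an r of 0.34, so the numbers were not taken as pairs. With the replicate number as a block 5 enzymes were called instead of 6, without *Phgdh*, and 30.4% of all genes were called.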
